A study of Arabidopsis thaliana with 18 samples.

Results

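The genes described here are 10 plasma membrane intrinsic proteins (PIPs), the aquaporins of the Arabidopsis plasma membrane. They were chosen by gene identifier: PIP1-1 (AT3G61430), PIP1-2 (AT2G45960), PIP1-3 (AT1G01620), PIP1-4 (AT4G00430), PIP1-5 (AT4G23400), PIP2-1 (AT3G53420), PIP2-2 (AT2G37170), PIP2-3 (AT2G37180), PIP2-4 (AT5G60660) and PIP2-7 (AT4G35100), which the field usually writes with a semicolon in place of the hyphen. All 10 are among the 28278 genes of the count table and among the 19383 genes that passed the filter on low counts. The remaining PIP genes PIP2-5 (AT3G54820), PIP2-6 (AT2G39010) and PIP2-8 (AT2G16850) were used for comparison. The members were chosen with earlier results of these data known. PIP2-6, whose changes described below differ from theirs, is not among them. Results for the 10 members therefore do not stand for all PIP genes.

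PIPs are channels that let water, and in some cases carbon dioxide or hydrogen peroxide, cross the plasma membrane. They assemble as tetramers, and PIP1 proteins often reach the plasma membrane only together with PIP2 proteins. Each subunit folds 2 short loops into the pore, and each loop carries the asparagine-proline-alanine (NPA) box that is the signature of aquaporins. In Arabidopsis roots, aquaporin transcripts are known to fall after auxin treatment, and this fall has been tied to water flow during lateral root emergence.

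RNA-seq was carried out on whole seedlings of 3 genotypes, all 4 d old and all in the Col-0 background: wild type (Wt), *aff1-1* and *aff1-3*. Seedlings were moved to liquid medium with ethanol (mock) or with indole-3-acetic acid (IAA), a natural auxin, for 2 h, with 3 samples for each of the 6 groups and 18 in all. The IAA dose is taken from the study's methods as 10 µM, while the sample labels give the same number in mM. AFF1 encodes an F-box protein of an E3 ubiquitin ligase that acts on the transcription factors ARF7 and ARF19. The comparison asks how gene expression differs in *aff1* mutants with and without auxin. The allele *aff1-1* is a single line from chemical mutagenesis of *arf19-1* seeds that carried *35S:YFP-ARF19*. Per the study's methods it was crossed repeatedly to Col-0, and progeny were genotyped to part the lesion from neighbouring mutations. The sources used here do not say whether the seedlings sequenced were free of *arf19-1* and of the transgene. The allele *aff1-3* is a single T-DNA insertion line. GEO's labels call it *aff1-2*, but the line number they give is that of *aff1-3* in the study. The replicates are repeated treatments, so the p-values measure the spread between these samples, which may be in part technical. Because RNA came from whole seedlings, fewer cells with a transcript and less transcript per cell cannot be told apart.

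Total counts per sample were between 12610301 and 36102396, and Spearman correlations between replicates of a group were between 0.981 and 0.994. Levels are given as CPM, a gene's counts relative to the library total after TMM scaling,, or per kilobase of merged exons (RPKM) where genes are compared with each other. *AFF1* had 1 to 9 counts in Wt samples, 0 to 3 in *aff1-1* and 46 to 144 in *aff1-3*, so the counts do not show a loss of transcript in the insertion line. Plastid and mitochondrial genes took 1.96 to 2.28% of counts with mock in Wt, 3.33 to 3.54% in *aff1-1* and 2.31 to 4.93% in *aff1-3*, where replicate 2 was the highest of all samples. All 12 root organ markers (among them *CASP1* and *PIN2*) and all 12 shoot organ markers (among them *RBCS1A* and *CA1*) had counts in every sample.

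The coding sequence around the first NPA box shows how close the members are to each other. The windows below join coding exons 1 and 2 across an intron, are read 5′ to 3′ on the coding strand from the RefSeq assembly TAIR10.1, and have the 3 codons of the NPA box in capitals. The coordinates span the intron.
PIP1-1, chr3:22733978-22734286, plus strand: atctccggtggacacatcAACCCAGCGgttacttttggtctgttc
PIP1-2, chr2:18910771-18911040, plus strand: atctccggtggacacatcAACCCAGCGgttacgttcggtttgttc
PIP1-3, chr1:226654-226855, minus strand: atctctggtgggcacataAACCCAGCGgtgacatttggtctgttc
PIP1-4, chr4:186860-187207, minus strand: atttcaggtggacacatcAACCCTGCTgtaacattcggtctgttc
PIP1-5, chr4:12221116-12221433, plus strand: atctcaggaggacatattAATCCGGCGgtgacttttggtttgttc
PIP2-1, chr3:19804642-19805154, minus strand: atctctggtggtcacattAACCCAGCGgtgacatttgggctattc
PIP2-2, chr2:15614332-15614497, minus strand: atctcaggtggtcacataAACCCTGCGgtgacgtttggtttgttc
PIP2-3, chr2:15618073-15618238, plus strand: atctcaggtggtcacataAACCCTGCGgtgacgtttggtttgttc
PIP2-4, chr5:24376396-24376639, minus strand: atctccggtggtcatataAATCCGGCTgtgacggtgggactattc
PIP2-7, chr4:16708951-16709087, plus strand: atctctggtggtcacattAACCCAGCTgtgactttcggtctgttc
Every member has 2 NPA boxes. The windows of the 5 PIP1 members differ from each other at 3 to 11 of 45 bases, and those of the 5 PIP2 members at 0 to 10. Over the aligned coding sequence, identity was 79.8 to 87.6% within PIP1, 70.2 to 75.9% between PIP1 and PIP2, and 72.0 to 86.2% within PIP2 when the pair of PIP2-2 and PIP2-3 is left out.

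PIP2-2 and PIP2-3 are the exception, since their windows are identical. They lie head to head on chromosome 2, 2612 bases apart (PIP2-2 at chr2:15613368-15615022 on the minus strand and PIP2-3 at chr2:15617635-15619155 on the plus strand), and their coding sequences are 94.8% identical. Their longest shared stretch is printed because a 50-base read from it cannot be assigned to either gene. It has 242 bases in lower case, with the first differing base on each side in capitals.
PIP2-2, chr2:15614254-15614618, minus strand: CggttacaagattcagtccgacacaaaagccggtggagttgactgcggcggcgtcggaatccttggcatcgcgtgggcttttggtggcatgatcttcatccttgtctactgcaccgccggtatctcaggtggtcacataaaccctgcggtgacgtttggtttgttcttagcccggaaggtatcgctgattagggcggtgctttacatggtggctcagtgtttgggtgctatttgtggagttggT
PIP2-3, chr2:15617952-15618316, plus strand: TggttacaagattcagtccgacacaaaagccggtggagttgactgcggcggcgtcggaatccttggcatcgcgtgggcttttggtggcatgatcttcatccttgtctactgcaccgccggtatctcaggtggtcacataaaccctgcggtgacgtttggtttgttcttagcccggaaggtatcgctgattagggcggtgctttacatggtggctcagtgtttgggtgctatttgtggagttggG
Of the 50-base positions in its exons, 80.4% are unique in PIP2-2 and 78.3% in PIP2-3, with 254 positions shared between the pair. The other members were unique at every position. Counts of PIP2-2 and PIP2-3 therefore come from part of each gene, and their levels are uncertain to that extent. The strand setting of the counting is not given in the sources used here.

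Because the study is about auxin, the 1000 bases before the annotated start of each gene were searched on both strands for TGTCTC, the auxin response element first described, and for TGTCGG, a form that ARF proteins bind strongly in vitro. TGTCTC was found before 2 of the 10 members (20%) and before 39.5% of 26711 genes, and TGTCGG before 0 members and before 14.6% of genes. The matches were 901 bases before the start of PIP2-1 and 566 bases before the start of PIP2-3, both on the strand opposite to the gene. They are shown in 60 bases of the gene's own strand (TAIR10.1), where the capitals are the motif's complement read backwards.
PIP2-1, chr3:19806599-19806658, minus strand: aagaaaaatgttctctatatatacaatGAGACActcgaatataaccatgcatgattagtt
PIP2-3, chr2:15617042-15617101, plus strand: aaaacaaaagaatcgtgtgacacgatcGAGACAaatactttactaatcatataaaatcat
A match is a description of these letters, and its absence elsewhere says nothing about a factor.

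In mock-treated Wt seedlings, PIP1-1, PIP1-2 and PIP2-1 were the most abundant members per length. PIP1-1 had 933 ± 108 RPKM (SD, n = 3), PIP1-2 had 880 ± 64.3 and PIP2-1 had 877 ± 81.9, and the samples of these 3 genes overlapped. A second tier held PIP2-2 (295 ± 26.3 RPKM), PIP1-5 (272 ± 28.7), PIP1-4 (255 ± 14.8) and PIP2-7 (245 ± 6.76), each overlapping with the next. PIP1-3 followed at 177 ± 1.74 RPKM, with no overlap with PIP2-7. PIP2-4 (39.0 ± 6.92 RPKM) and PIP2-3 (33.9 ± 3.14) were the least abundant members and overlapped. When only unique positions were used as length, PIP2-2 came to 380 RPKM and PIP2-3 to 45.1 RPKM, which puts PIP2-3 above PIP2-4 at 40.3 RPKM. Of the other PIP genes, PIP2-6 lay at 173 RPKM, PIP2-8 at 17.3 and PIP2-5 at 8.60.

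**Figure D1:**
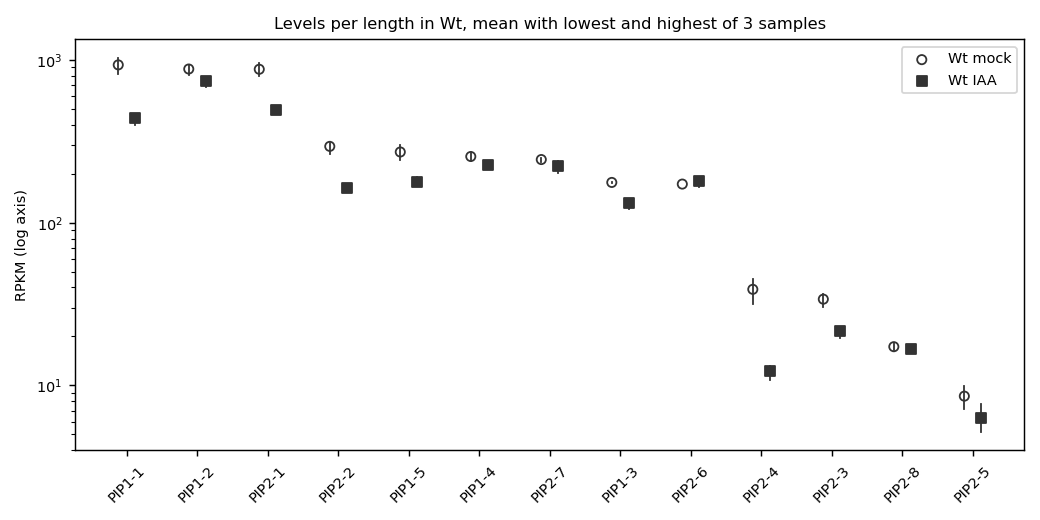
Levels per length (RPKM, log axis) of 13 PIP genes in Wt seedlings with mock (open circles) and IAA (filled squares), as the mean of 3 samples with a line from the lowest to the highest. PIP1-1 stood at 933 RPKM with mock and at 437 RPKM with IAA, while PIP1-2 stood at 880 and 745 RPKM.

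Most of the 10 members were lower with IAA in Wt, while 0 of the 3 other PIP genes were called. Of the 10 members, 7 fell and 0 rose at an adjusted p below 0.01, against 9.66% of all genes called in either direction and 4.74% called lower (quasi-likelihood test of edgeR, Benjamini-Hochberg adjusted over 19383 genes). All 10 log2 fold changes were negative, with a median of -0.64 against 0.0051 over all genes. The summed level of the 10 members was 6269 ± 504 CPM with mock and 4166 ± 227 CPM with IAA (SD, n = 3), which is 66.5% of the mock level.

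Among the PIP1 members, PIP1-1 changed most. Its level was 1269, 1489 and 1598 CPM in the mock samples and 712, 710 and 618 CPM in the IAA samples. Every IAA sample lay well under every mock sample, and the log2 fold change was -1.09 (SE 0.10, adjusted p = 4.47e-08). PIP1-5 stood at 321, 367 and 396 CPM with mock and at 225, 252 and 231 CPM with IAA. Its groups did not overlap, and it fell by 0.61 on the log2 scale (adjusted p = 9.25e-05). PIP1-3 stood at 274, 277 and 271 CPM with mock and at 209, 218 and 189 CPM with IAA, a log2 fold change of -0.42 (adjusted p = 0.00148). This call was lost without Wt IAA replicate 3 (adjusted p = 0.0175). PIP1-2, a channel for water and carbon dioxide, and PIP1-4 did not pass the test, with log2 fold changes of -0.24 and -0.17 (adjusted p = 0.0726 and 0.211), although their mock and IAA samples did not overlap.

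Among the PIP2 members, PIP2-4 had the largest fold change of the family. It stood at 57.9, 65.6 and 45.8 CPM with mock and at 15.7, 19.0 and 18.7 CPM with IAA. The lowest mock sample was more than 2 times the highest IAA sample, and the log2 fold change was -1.66 (SE 0.17, adjusted p = 1.56e-07), a change of -68.3%. PIP2-1, a major water channel of roots and guard cells, stood at 1255, 1373 and 1512 CPM with mock and at 792, 799 and 746 CPM with IAA. Its groups lay far apart relative to their spread, with a log2 fold change of -0.82 (SE 0.09, adjusted p = 3.98e-07). PIP2-2 stood at 356, 418 and 415 CPM with mock and at 217, 222 and 216 CPM with IAA, and fell by 0.86 on the log2 scale (adjusted p = 2.06e-07). PIP2-3, known also as RD28 for its response to desiccation, stood at 37.1, 44.5 and 42.5 CPM with mock and at 27.8, 27.1 and 23.9 CPM with IAA, and fell by 0.66 (adjusted p = 6.40e-05). PIP2-7 was the single member whose mock samples (380, 398 and 399 CPM) overlapped with its IAA samples (373, 384 and 322 CPM), and its log2 fold change was -0.12 (adjusted p = 0.332). In all, 9 of the 10 members did not overlap between mock and IAA, as did 35.4% of all genes.

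**Figure D2:**
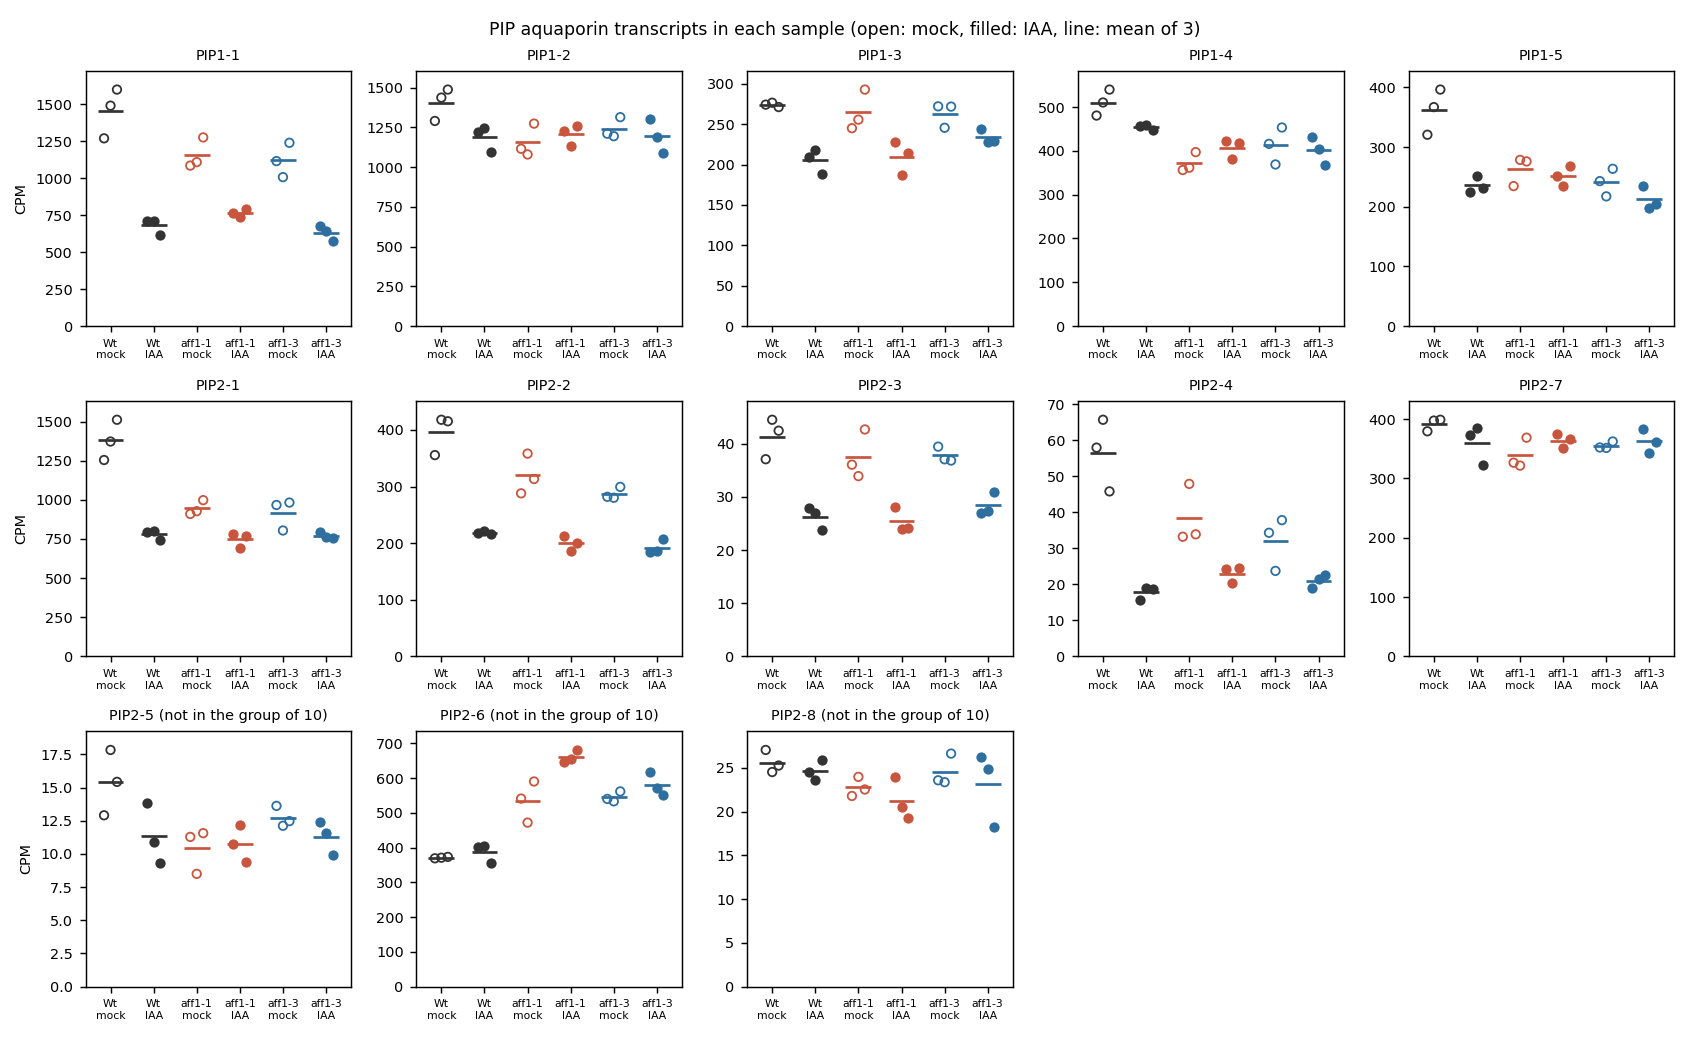
CPM of each PIP gene in each of the 18 samples, on a linear axis from 0, with open circles for mock, filled circles for IAA and a line at the mean of 3. For PIP2-1 the 3 Wt mock samples lie above all other samples, at 1255 to 1512 CPM, and for PIP1-1 the Wt samples lie at 1269 to 1598 CPM with mock and at 618 to 712 CPM with IAA, while PIP2-6 is higher in every mutant sample than in any Wt sample.

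In *aff1-1*, 4 of the 10 members fell with IAA and 0 rose, against 4.87% of all genes called and 1.71% called lower. The median log2 fold change of the members was -0.34 (all genes, -0.0018), and 3 of the 10 were positive. PIP1-1 stood at 1085, 1108 and 1275 CPM with mock and at 763, 736 and 789 CPM with IAA, with no overlap and a log2 fold change of -0.60 (SE 0.10, adjusted p = 0.000277). PIP2-2 stood at 288, 358 and 313 CPM with mock and at 213, 186 and 201 CPM with IAA, and fell by 0.68 on the log2 scale (adjusted p = 1.17e-05). PIP2-3 fell by 0.56 (adjusted p = 0.000740), a call lost without *aff1-1* mock replicate 3 (adjusted p = 0.0104). PIP2-4 fell by 0.73 (adjusted p = 0.00530), and this call was lost without *aff1-1* mock replicate 2 or without any 1 of the 3 *aff1-1* IAA replicates (adjusted p up to 0.0537). PIP1-3 and PIP2-1 had log2 fold changes of -0.34 each and missed the threshold (adjusted p = 0.0162 and 0.0171). On all samples they passed it with limma (adjusted p = 0.00368 and 0.00195) and with DESeq2 (adjusted p = 0.00266 and 0.00238). With edgeR they passed it without *aff1-3* mock replicate 2, the library with the highest organelle share (adjusted p = 0.00991 and 0.00508).

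In *aff1-3*, 2 of the 10 members fell with IAA and 0 rose, against 4.95% of all genes called and 1.97% called lower. The median of the members was -0.22 (all genes, 0.0038), and 9 of the 10 were negative. PIP1-1 stood at 1115, 1007 and 1238 CPM with mock and at 675, 643 and 572 CPM with IAA, with a log2 fold change of -0.83 (SE 0.10, adjusted p = 4.75e-06). PIP2-2 stood at 282, 280 and 299 CPM with mock and at 185, 186 and 207 CPM with IAA, with a log2 fold change of -0.58 (SE 0.09, adjusted p = 8.66e-05). The IAA samples of both genes lay under all their mock samples. PIP2-3 (-0.42, adjusted p = 0.0123) and PIP2-4 (-0.62, adjusted p = 0.0223) missed the threshold. On all samples, DESeq2 called both (adjusted p = 0.00367 and 0.00608). PIP2-4 also passed with limma (adjusted p = 0.00699) and with edgeR without the filter on low counts (adjusted p = 0.00746). With edgeR, PIP2-4 passed without *aff1-3* mock replicate 2 (log2 fold change -0.79, adjusted p = 0.00182). In that sample it stood at 23.7 CPM, against 34.3 and 37.8 CPM in the other replicates. PIP2-3 passed with edgeR without *aff1-1* mock replicate 3 (adjusted p = 0.00871). The IAA responses of the 3 genotypes use different samples, and PIP1-1 and PIP2-2 were past the threshold in each of them.

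**Figure D3:**
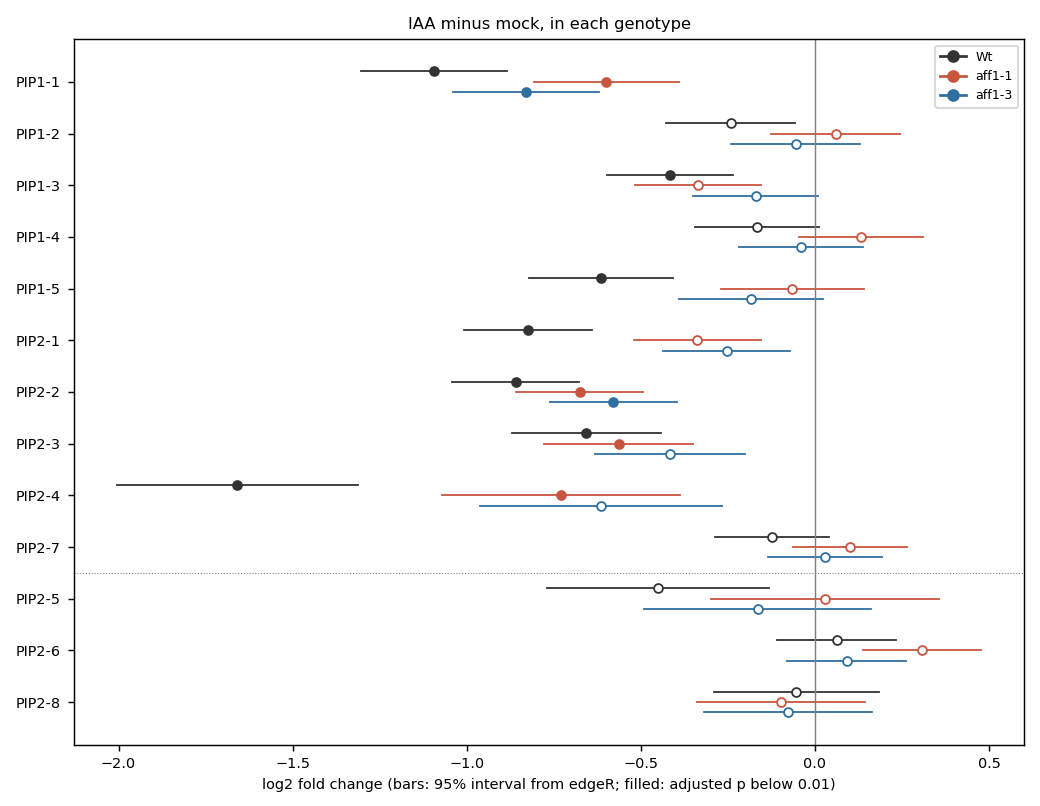
Log2 fold change of IAA over mock for each PIP gene in Wt, *aff1-1* and *aff1-3*, with 95% intervals from the fit across all genes. Filled points passed an adjusted p of 0.01, which is 7 of the 10 members in Wt, 4 in *aff1-1* and 2 in *aff1-3*, and the genes under the dotted line are the other PIPs. PIP2-4 ranges from -1.66 in Wt to -0.62 in *aff1-3*.

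The difference between these responses was tested as an interaction. All 10 members had a positive interaction in both alleles, which means a smaller fall or a rise in the mutant, with medians of 0.30 in *aff1-1* and 0.25 in *aff1-3* (all genes, 0.0045 and 0.0078). The 2 interactions share the Wt samples, so they are not separate evidence. The sign was not particular to these members. In *aff1-1* and *aff1-3*, 7 and 6 of 7 tested aquaporins of the vacuole were positive (medians 0.33 and 0.20). So were 10 and 8 of 11 ABA and osmotic stress genes and 12 and 7 of 12 shoot organ markers. Of 12 root organ markers, 3 and 8 were positive, and of 6 auxin response genes 0 and 1. These lists are described below. By edgeR's quasi-likelihood test, 0 of 10 members passed the threshold in either allele, against 0.0722% and 0.0877% of all genes. At an unadjusted p below 0.05 there were 6 members in *aff1-1* (12.2% of all genes) and 4 in *aff1-3* (10.5%). With limma the counts were 0 and 0, and with DESeq2 they were 0 and 2. Over all genes, limma called 48 and 11 of 19383, and DESeq2 called 94 and 117 of 19377. The largest interactions were those of PIP2-4, 0.93 in *aff1-1* with a 95% interval of 0.45 to 1.41 (adjusted p = 0.0935), and 1.04 in *aff1-3* with an interval of 0.56 to 1.53 (adjusted p = 0.0443). PIP2-1 had 0.49 (adjusted p = 0.104) and 0.57 (adjusted p = 0.0392). PIP2-1 (adjusted p = 0.00185) and PIP2-4 (adjusted p = 0.00327) were also the members that DESeq2 called in *aff1-3*. PIP1-5, which passed the threshold for the IAA response in Wt alone, had 0.55 (adjusted p = 0.104) and 0.43 (adjusted p = 0.219). By edgeR, a difference in response was thus not shown for any single member at the threshold used.

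Without auxin, 3 of the 10 members were called lower than Wt in *aff1-1* and 4 in *aff1-3*, and 0 were called higher. The count in *aff1-1* stands against 4.58% of all genes called and 1.62% called lower, and the members had a median of -0.32 (all genes, -0.00099). That in *aff1-3* stands against 6.78% of all genes called and 2.7% called lower, with a median of -0.34 (all genes, -0.00036). All 10 log2 differences were negative in each allele, and the summed level of the members was 4892 ± 337 CPM in *aff1-1* and 4907 ± 366 CPM in *aff1-3* (SD, n = 3), or 78.0 and 78.3% of Wt. Both comparisons, and the IAA response in Wt, use the same 3 Wt mock samples. In those samples the members' mean log2 CPM, centred on each gene's mean, was 0.35 to 0.50, and in the other 15 samples it was at most 0.19.

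PIP2-1 and PIP1-5 were called lower in each allele. PIP2-1 stood at 910, 928 and 998 CPM in *aff1-1* and at 967, 804 and 983 CPM in *aff1-3*, against 1255, 1373 and 1512 CPM in Wt. The mutants did not overlap with Wt, with log2 differences of -0.55 (adjusted p = 0.000322) and -0.59 (adjusted p = 8.26e-05). PIP1-5 stood at 235, 279 and 276 CPM in *aff1-1* and at 243, 217 and 264 CPM in *aff1-3*, against 321, 367 and 396 CPM in Wt. These groups did not overlap either, with differences of -0.46 (adjusted p = 0.00448) and -0.58 (adjusted p = 0.000339). The call of PIP1-5 in *aff1-1* was lost without Wt mock replicate 2 or 3, without *aff1-1* mock replicate 1 or 3, and in a fit to the groups compared alone (adjusted p up to 0.0396).

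By edgeR on all samples, each of the other members called in mock-treated seedlings passed in 1 allele only. PIP1-4 stood at 356, 362 and 397 CPM in *aff1-1* against 481, 510 and 540 CPM in Wt, a difference of -0.46 (adjusted p = 0.00132) that was lost without *aff1-1* mock replicate 1 (adjusted p = 0.0116). The difference in *aff1-3* was -0.31 and missed the threshold (adjusted p = 0.0200). PIP2-4 stood at 34.3, 23.7 and 37.8 CPM in *aff1-3* against 57.9, 65.6 and 45.8 CPM in Wt, a difference of -0.82 (SE 0.16, adjusted p = 0.00134). In *aff1-1* it was -0.56 (adjusted p = 0.0282), with 1 sample (47.9 CPM) inside the range of Wt. The differences of PIP2-2 were -0.31 in *aff1-1* and -0.46 in *aff1-3* (adjusted p = 0.0269 and 0.000899). In a fit to the groups compared alone, PIP2-2 and PIP2-4 were not called in *aff1-3*, and PIP2-4 was not called there without Wt mock replicate 2 (adjusted p up to 0.0183 and 0.0142). PIP2-2 and PIP2-4 were called in *aff1-1* when its mock replicate 2 was left out (adjusted p = 0.00752 and 0.00552), PIP2-4 also without *aff1-3* mock replicate 2 (0.00783), and PIP1-1 in *aff1-3* without Wt mock replicate 1 (0.00560) or *aff1-3* mock replicate 3 (0.00956). On all samples, limma called PIP2-2 in *aff1-1* (adjusted p = 0.00972), and DESeq2 called PIP1-1 and PIP1-4 in *aff1-3* (adjusted p = 0.00438 and 0.00547). PIP1-3, PIP2-3 and PIP2-7 were closest to Wt, with differences between -0.21 and -0.05 in the 2 alleles.

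With IAA, no member was called different between the mutants and Wt. By edgeR's quasi-likelihood test, 0 of the 10 members differed from Wt in *aff1-1* (6.17% of all genes) and 0 in *aff1-3* (4.72%), and limma and DESeq2 also gave 0 and 0. Over all genes, limma called 2948 and 1387 of 19383 there, and DESeq2 called 1818 and 1288 of 19377. At an unadjusted p below 0.05 there was 1 member in *aff1-1* (28.3% of all genes) and there were 3 in *aff1-3* (21.3%). The medians were 0.018 and -0.0059, and the widest difference was that of PIP2-4 in *aff1-1*, 0.37 (95% interval 0.02 to 0.71). For PIP2-1 the 95% interval was -0.24 to 0.12 in *aff1-1* and -0.20 to 0.17 in *aff1-3*. Summed over the members, IAA-treated seedlings had 4166 ± 227 CPM in Wt, 4197 ± 221 CPM in *aff1-1* and 4045 ± 233 CPM in *aff1-3* (SD, n = 3). The mean of the mock-treated mutant lay between the mock and IAA means of Wt for 7 of the 10 members in *aff1-1* and 8 in *aff1-3*. This description shares the Wt samples with the tests above. The share over all genes was not computed, so no conclusion is drawn from these counts.

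**Figure D4:**
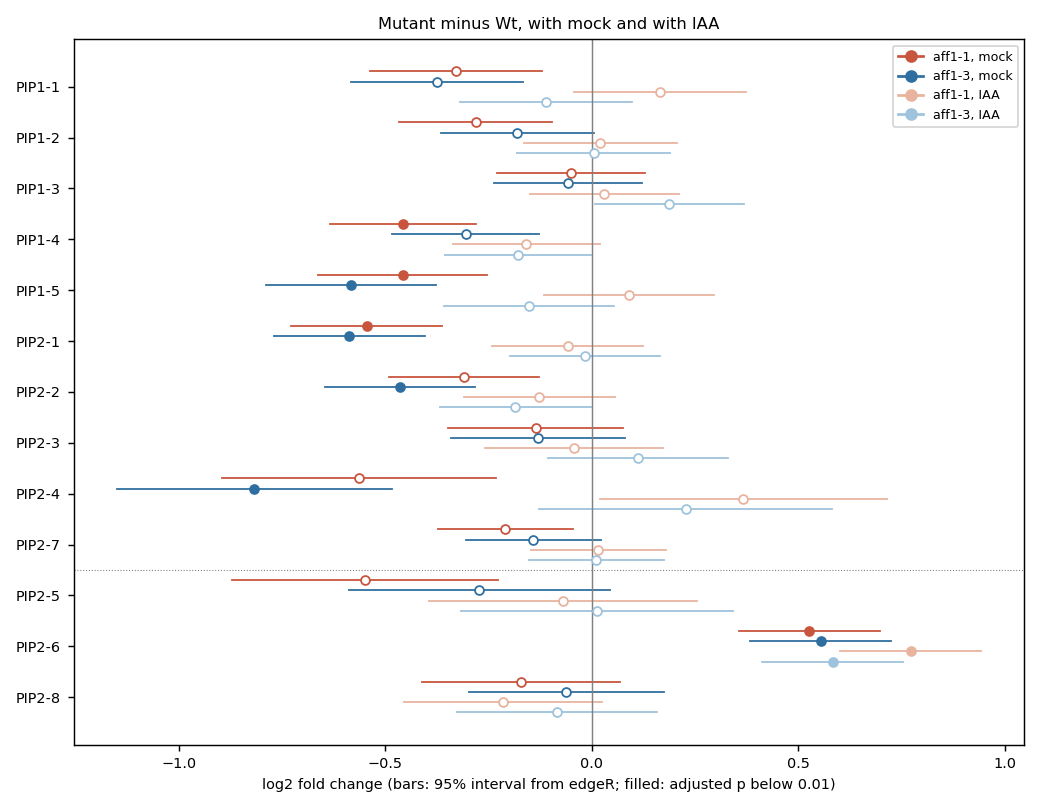
Log2 difference of each mutant from Wt for each PIP gene, with mock (dark) and IAA (light), and 95% intervals from the fit across all genes. Filled points passed an adjusted p of 0.01. With mock all 10 members lie left of 0 in both alleles, with IAA they lie on both sides of it with none filled, and PIP2-6 lies right of 0 in each comparison.

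No member was called different between the alleles by edgeR, limma or DESeq2. By edgeR the count was 0 of 10 with mock (0.139% of all genes) and 0 of 10 with IAA (0.181%), and at an unadjusted p below 0.05 it was 0 (10.3% of all genes) and 2 (12.3%). Over all genes, limma called 23 with mock and 49 with IAA of 19383, and DESeq2 called 61 and 107 of 19377. With mock the widest difference was that of PIP2-4 (*aff1-3* minus *aff1-1*, -0.25, 95% interval -0.59 to 0.08). With IAA it was that of PIP1-1 (-0.28, -0.48 to -0.07, adjusted p = 0.252).

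PIP2-6 was the single PIP gene called higher in the mutants. It stood at 369, 371 and 373 CPM in mock-treated Wt, at 541, 472 and 590.4 CPM in *aff1-1* and at 540, 533 and 562 CPM in *aff1-3*. With IAA it stood at 401, 406 and 355 CPM in Wt, at 647, 656 and 681 CPM in *aff1-1* and at 618, 571 and 552 CPM in *aff1-3*. Every mutant sample lay above every Wt sample. The log2 differences from Wt were 0.53 and 0.55 with mock (adjusted p = 0.000221 and 7.26e-05) and 0.77 and 0.58 with IAA (adjusted p = 2.50e-06 and 6.08e-05) for *aff1-1* and *aff1-3*, and these calls held in each of the 27 alternatives tried. Its IAA response was 0.06, 0.31 and 0.09 in Wt, *aff1-1* and *aff1-3* (adjusted p = 0.682, 0.0203 and 0.603). On all samples, the response in *aff1-1* passed the threshold with limma (adjusted p = 0.007655) and with DESeq2 (adjusted p = 0.00516). With edgeR it passed without *aff1-1* mock replicate 3 (adjusted p = 0.00767). PIP2-5, which stood at 7.21 to 9.97 RPKM in mock-treated Wt, and PIP2-8 were called in none of these comparisons.

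Levels of the members were also compared across samples. Over the 18 samples, Pearson correlations between the log2 CPM of 2 members were positive for all 45 pairs, with a median of 0.73 and a range from 0.19 (PIP2-4 and PIP2-7) to 0.94 (PIP1-1 and PIP2-2). With the group means taken out, the median was 0.53 and 3 pairs were negative, PIP2-4 with PIP2-7 (-0.16), PIP1-2 (-0.15) and PIP2-3 (-0.09). These values describe libraries that share their treatment, genotype and scaling. PIP2-1 followed the family mean, taken over the 10 members, most closely (r = 0.97), and PIP2-7 least (r = 0.42). Each member is part of that mean, so these values cannot be set against those of other genes. Among 11556 other genes with a mean of at least 10 CPM, those with the pattern most like the family mean were *GSTF9*, a glutathione transferase (r = 0.96), AT1G74840 (r = 0.96), AT2G48030 (r = 0.96), *FLA15*, a fasciclin-like arabinogalactan protein (r = 0.96), and *GA3OX1*, an enzyme of gibberellin synthesis (r = 0.96).

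Other aquaporin groups were counted in the same way. Of the tonoplast intrinsic proteins (TIPs), the aquaporins of the vacuole, 7 of 10 were tested, and 4 fell with IAA in Wt, 1 in *aff1-1* and 0 in *aff1-3*, against 4.74, 1.71 and 1.97% of all genes called lower. The same shares apply to the falls with IAA in the 2 lists that follow. In Wt the largest falls were those of TIP2-3 (-1.55, adjusted p = 6.81e-06), TIP4-1 (-0.79, adjusted p = 0.00271) and TIP2-2 (-0.66, adjusted p = 2.37e-05), and the median of the TIPs was -0.48. With mock, 0 of the 7 differed from Wt in either allele, against 4.58 and 6.78% of all genes called in *aff1-1* and *aff1-3*. These mock shares also apply to the 2 lists that follow. With IAA, all 7 TIPs lay above Wt in both alleles (medians 0.17 in *aff1-1* and 0.32 in *aff1-3*). Of these, 1 was called in *aff1-1* and 0 in *aff1-3*, against 6.17 and 4.72% of all genes. Of the NIP and SIP aquaporins, 9 of 12 were tested, and NIP1-1 alone fell with IAA in Wt (-2.54, adjusted p = 8.67e-06). In *aff1-3*, 1 of the 9 was called higher with IAA, against 4.95% of all genes called. NIP1-1 was also lower in both mock-treated mutants (-1.47 and -1.36, adjusted p = 0.00467 and 0.00510), and NIP2-1 was higher in *aff1-1* (1.25, adjusted p = 0.00269). Of 9 genes for PIP trafficking and turnover, *RMA2*, a RING ubiquitin ligase of the endoplasmic reticulum, fell with IAA by 0.93 in Wt and by 0.65 in *aff1-3* on the log2 scale (adjusted p = 2.57e-07 and 6.83e-05). *SYP121*, a SNARE protein that takes part in the delivery of PIPs to the plasma membrane, was higher in mock-treated *aff1-3* (0.49, adjusted p = 0.00904).

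The auxin treatment and the organ makeup were read from lists of their own. All 6 auxin response genes rose with IAA in each genotype, against 9.66, 4.87 and 4.95% of all genes called. *GH3.3*, an auxin-conjugating enzyme, rose by 6.54 on the log2 scale in Wt. The median rise was 4.65 in Wt, 3.89 in *aff1-1* and 3.92 in *aff1-3*. The interaction was negative for 6 of 6 in *aff1-1* (2 called) and 5 of 6 in *aff1-3* (0 called), against 0.0722 and 0.0877% of all genes called. With IAA, 1 of the 6 was called lower than Wt in each allele, against 6.17 and 4.72% of all genes called. With mock, where several PIP members were lower in the mutants, 3 of the 6 were higher than in Wt in *aff1-1* (median 0.91) and 4 in *aff1-3* (median 0.71), against 4.58 and 6.78% of all genes called. Their summed level with mock was 23.9 to 31.8 CPM in Wt, 47.3 to 68.9 CPM in *aff1-1* and 44.4 to 55.6 CPM in *aff1-3*, so that both mutants lay above Wt without overlap. The part of this auxin response list in the PIP differences was not tested. Of 12 root organ markers, 2 rose and 2 fell with IAA in Wt (median 0.09), with the largest changes in *PHO1* (-1.32), *WOX5* (1.02) and *COBL9* (-0.93). Of all genes, 9.66% were called in this comparison and 4.74% were called lower. The summed level of the root markers was 266 to 299 CPM with mock and 258 to 269 CPM with IAA, and these ranges overlapped. Of 12 shoot organ markers, 1 fell, *RBCS1B* (-0.43), the median was -0.19, and the summed level was 90262 to 102039 CPM with mock and 85455 to 89935 CPM with IAA, without overlap. With mock the root sum was 264 to 287 CPM in *aff1-1* and 241 to 283 CPM in *aff1-3*, and the shoot sum 93483 to 107996 and 99241 to 112063 CPM, each overlapping with Wt. Single markers were called there. In *aff1-1*, 1 shoot marker was higher and 1 lower than Wt, and 0 root markers were called. In *aff1-3*, 1 root marker was higher and 1 shoot marker lower. Of all genes, 4.58 and 6.78% were called. With IAA the root sum was 199.5 to 245 CPM in *aff1-1*, under its own mock samples and under the IAA samples of Wt without overlap, and 237 to 262 CPM in *aff1-3*, overlapping with both. In the IAA response of *aff1-1*, 9 of the 12 root markers were negative (median -0.25) and 1 of 12 was called lower, against 1.71% of all genes. The shoot sum with IAA was 96955 to 105134 CPM in *aff1-1* and 93466 to 102198 CPM in *aff1-3*, both above the IAA samples of Wt without overlap. With IAA, 4 of 12 shoot markers were called higher than Wt in *aff1-1* and 1 in *aff1-3*, with 0 lower. Of 12 root markers, 2 and 1 were called lower, with 0 higher. Of all genes, 6.17 and 4.72% were called. The part of organ makeup in the PIP results was not tested. When plastid and mitochondrial genes, whose share was higher in the mutants with mock, were left out, the counts of PIP members called stayed at 3 in *aff1-1* and 4 in *aff1-3*.

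Several genes of ABA and osmotic stress, conditions under which PIP transcripts are known to change, were higher in the mutants. With mock, 2 of 11 were higher in *aff1-1* and 4 in *aff1-3*, and with IAA 6 and 5, with 0 lower in each case. Of all genes, 4.58 and 6.78% were called with mock and 6.17 and 4.72% with IAA. *RD29A*, a classic desiccation-induced gene, differed from Wt by 1.42 and 1.46 with mock (adjusted p = 9.70e-07 and 3.41e-07) and by 1.88 and 1.83 with IAA (adjusted p = 4.06e-08 and 2.48e-08). *COR47*, a dehydrin, differed by 0.53 and 0.65 with mock (adjusted p = 0.000758 and 5.69e-05). The summed level of the list was 1660 ± 184 CPM in mock-treated Wt, 2508 ± 369 CPM in *aff1-1* and 2613 ± 153 CPM in *aff1-3* (SD, n = 3). With IAA in Wt, where 7 PIP members fell, 0 genes of this list rose and 1 fell (*COR47*, -0.39, adjusted p = 0.00537). The part of this stress list in the PIP differences was not tested.

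**Figure D5:**
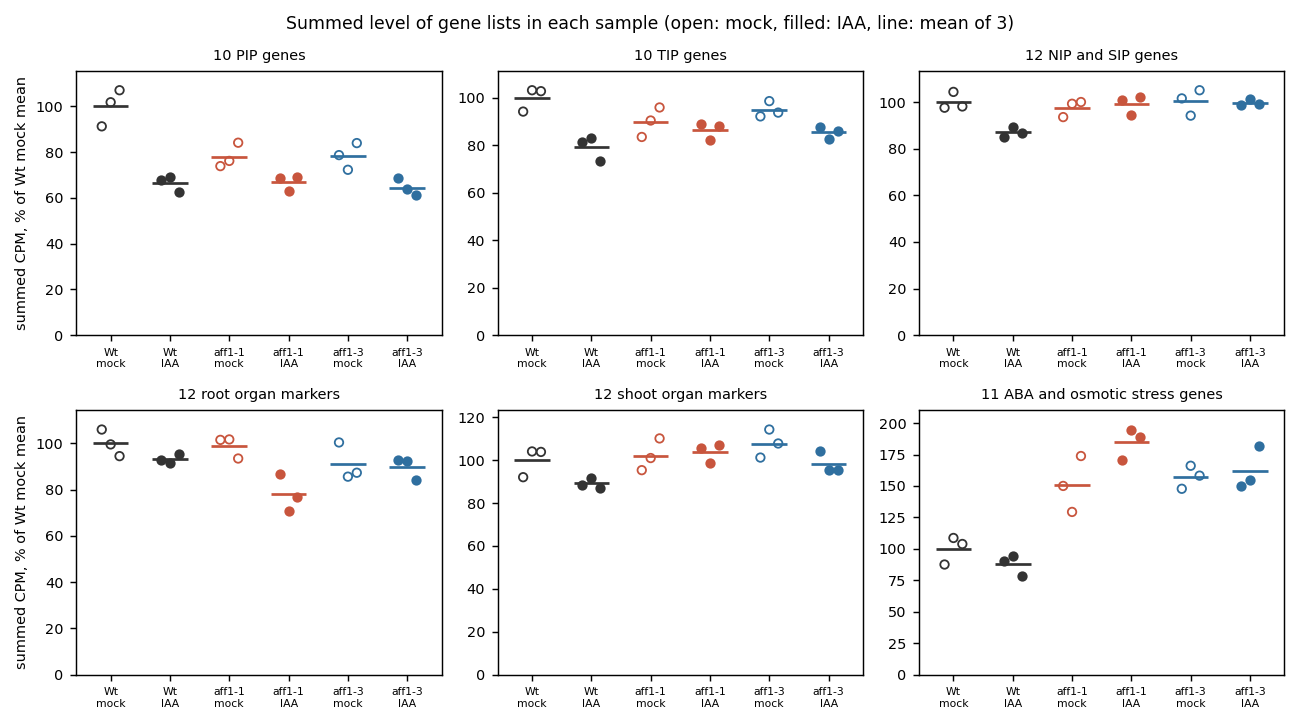
Summed CPM of 6 gene lists in each sample as a percentage of the mean of mock-treated Wt, on axes from 0, with open circles for mock, filled circles for IAA and a line at the mean of 3. The 10 PIP genes stand at 66.5% with IAA in Wt and at 78.0 and 78.3% in the mock-treated mutants, while the ABA and osmotic stress genes stand at 151 and 157% in the mock-treated mutants.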

How the data were processed

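The RNA of 18 whole-seedling samples was sequenced (3 genotypes, mock or IAA, 3 replicates each). The authors deposited 1 table of raw counts, made with STAR and featureCounts on TAIR10 from 50-base single reads that aligned to 1 place and 1 gene, without normalization. The labels name the SMARTer cDNA kit and the methods Ribo-Zero Gold, and the strand setting is not given in the sources used here. No per-sample column was left unused (0).

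Of 28278 genes, 99.0% were matched to TAIR10.1 for names, exon lengths and sequence, and 4 nuclear ribosomal RNA genes were left out. A gene was tested if at least 2 samples in any 1 group exceeded 1 CPM, which gave 19383 genes. Comparisons were made by quasi-likelihood F tests in edgeR 4.0.16 under R 4.3.3, with TMM scaling and all samples in 1 fit of 6 group means, and called at a Benjamini-Hochberg adjusted p below 0.01. The F statistic and the log2 fold change gave the standard error, and fitted folds of low genes depend on edgeR's prior. Log2 CPM used a prior count of 2. No 2 replicates of a group agreed within sampling noise (chi-square per gene at least 3.85). Total counts of 12610301 to 36102396 set the precision. The biological coefficient of variation, from edgeR's common dispersion over all genes, was 11.7%.

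The tests were repeated with the authors' own approach (limma 3.58.1, weighting samples), with DESeq2 1.42.0, with RLE size factors, no filter, only the groups compared, a replicate block, thinned counts, no organelle genes, an adjusted p below 0.05 and each sample left out in turn. Adding the counts of PIP2-2 and PIP2-3 was chosen after seeing the data. The scripts were tested on simulated data. All 10 members and the 3 other PIP genes are named whatever their values. From the other lists, up to 3 genes with the largest change past the threshold are named, and the 5 genes most like the family mean over 18 samples. Members and lists were chosen with earlier results of these data known.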

Additional observations from a re-analysis of the deposited data

How the results depend on the processing

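Over 9 alternatives and 18 fits that each left out 1 sample, no called value of a PIP gene reversed its direction. The counts of members called moved by more than 1.5 times in a few cases. With DESeq2, 4 members fell with IAA in *aff1-3* and 2 had an interaction of *aff1-3* and IAA, instead of 2 and 0. Over all genes DESeq2 called 1235 and 117 of 19377 there, against 959 and 17 of 19383 by edgeR. A smaller move was that PIP1-3 and PIP2-1 also passed with limma and with DESeq2 for the IAA response in *aff1-1*. In a fit to only the groups compared, 2 members were lower in mock-treated *aff1-3* instead of 4. Over all genes that fit called 612 of 18996, against 1314 of 19383 in the main fit. With an adjusted p below 0.05, the counts were 4 for the IAA response in *aff1-3*, 7 for mock-treated *aff1-1* and 2 for the interaction of *aff1-3* and IAA, instead of 2, 3 and 0. Over all genes the counts were then 1629, 1879 and 98 of 19383, instead of 959, 887 and 17. The looser threshold adds calls by construction, and for the other settings the cause was not tested. Leaving out 1 sample in turn gave 1 to 5 members lower in mock-treated *aff1-1* (1 without *aff1-1* mock replicate 1 and 5 without *aff1-1* mock replicate 2), 3 to 5 in mock-treated *aff1-3*, and with IAA 6 to 7 in Wt, 3 to 6 in *aff1-1* and 2 to 3 in *aff1-3*. The other comparisons stayed at 0. Over all genes, mock-treated *aff1-1* had 463 of 19361 called without its replicate 1 and 858 of 19359 without its replicate 2, against 887 of 19383 in the main fit. RLE size factors, thinned counts and the fit without organelle genes changed none of 143 calls. Counting PIP2-2 and PIP2-3 as 1 gene changed none of 11 calls.

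Replicate numbers did not pair the samples throughout: the 45 same-numbered pairs across groups had correlations of -0.28 to 0.26 in their deviations from the group means (median 0.013), and 8 were over 0.1. Among these, replicate 1 of mock-treated Wt had 0.26 with that of *aff1-1* and 0.24 with that of *aff1-3*. Whether only some groups shared a batch was not tested. With the replicate block, 7, 4 and 2 members fell with IAA in Wt, *aff1-1* and *aff1-3*, 3 and 4 were lower in the mock-treated mutants and 0 elsewhere, and the block changed none of the 143 calls. With 3 samples a group, small changes stay undetermined: the 95% intervals of the IAA response in Wt were -0.43 to -0.06 for PIP1-2, -0.34 to 0.01 for PIP1-4 and -0.29 to 0.04 for PIP2-7.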
